A study of Mus musculus with 4 samples.

Results

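The Slc25a genes encode the mitochondrial carriers, and their members here were the rows of the deposited table whose symbol is Slc25a followed by a number. The rule found 47 genes of the 46095 symbols in the table. All 47 had at least 1 count in some library, and 40 had enough counts to be tested. The genes were measured in whole colon of C57BL/6 mice at postnatal day 21, in 2 libraries labelled Esr2-KO (genotype Esr2-/-, without a working copy of the gene of estrogen receptor β) and 2 libraries labelled WT (wild type). The labels give no treatment, no sex, no site within the colon and no description of the deleted allele. The text of the series gives triplicates, and 2 libraries per genotype were analysed here. Nothing says whether the libraries of a genotype came from separate mice, so the p-values measure the spread between these libraries, which may be technical.

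Members of this family sit mostly in the inner mitochondrial membrane, where each moves a particular set of small molecules between the cytosol and the matrix. Together they exchange ADP for ATP, bring in phosphate and pass citrate, malate, glutamate and aspartate across the membrane. They also bring fatty acids in as acylcarnitines and supply the matrix with cofactors and iron. Colonocytes burn short-chain fatty acids in their mitochondria, so the epithelium of this tissue is rich in the machinery that these carriers serve. A few members act elsewhere, such as Slc25a17 in peroxisomes and Slc25a46 in the outer mitochondrial membrane.

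The promoters of the 2 most abundant members (Slc25a5 and Slc25a3) and of the 2 members with the smallest p in the comparison of genotypes (Slc25a36 and Slc25a34) are shown because the series removes a nuclear receptor. Each runs from 250 bases before to 50 bases after the RefSeq start (GRCm38.p6), 5′ to 3′ along the gene. Capitals mark GC boxes (GGGCGG) and nuclear receptor half-sites (AGGTCA) on either strand.
Slc25a5 (chrX:36795347-36795646, plus strand): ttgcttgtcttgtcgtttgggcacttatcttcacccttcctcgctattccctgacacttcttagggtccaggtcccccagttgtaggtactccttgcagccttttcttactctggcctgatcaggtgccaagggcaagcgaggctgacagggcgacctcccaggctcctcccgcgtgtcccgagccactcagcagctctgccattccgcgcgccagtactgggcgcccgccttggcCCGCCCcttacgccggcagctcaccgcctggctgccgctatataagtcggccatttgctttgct
Slc25a3 (chr10:91123918-91124217, minus strand): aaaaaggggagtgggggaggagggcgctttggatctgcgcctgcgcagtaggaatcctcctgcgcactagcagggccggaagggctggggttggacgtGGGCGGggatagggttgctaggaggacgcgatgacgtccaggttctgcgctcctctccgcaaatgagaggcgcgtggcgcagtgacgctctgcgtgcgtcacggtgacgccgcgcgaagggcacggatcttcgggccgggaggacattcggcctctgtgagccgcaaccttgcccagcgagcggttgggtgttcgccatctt
Slc25a36 (chr9:97110992-97111291, minus strand): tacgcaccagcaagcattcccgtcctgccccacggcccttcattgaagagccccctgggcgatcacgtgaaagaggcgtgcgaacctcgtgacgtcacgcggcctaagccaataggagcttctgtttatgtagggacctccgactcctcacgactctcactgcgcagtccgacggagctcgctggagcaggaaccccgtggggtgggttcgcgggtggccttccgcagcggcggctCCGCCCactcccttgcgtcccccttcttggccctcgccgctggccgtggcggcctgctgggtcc
Slc25a34 (chr4:141623785-141624084, minus strand): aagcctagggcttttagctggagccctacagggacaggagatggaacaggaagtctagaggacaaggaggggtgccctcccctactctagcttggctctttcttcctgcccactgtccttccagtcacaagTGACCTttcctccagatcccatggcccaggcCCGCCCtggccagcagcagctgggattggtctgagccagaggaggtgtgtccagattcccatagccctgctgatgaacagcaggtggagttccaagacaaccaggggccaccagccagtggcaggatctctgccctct

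Of these 4 windows, each held a GC box and Slc25a34 alone held a half-site. RefSeq gave 46 promoter windows for 36 of the 47 members. A GC box was found in 38 of the 46 windows (82.6%), against 57.1% of 15464 windows of tested genes and 35.7% of all 32851 windows. The half-site was found in 4 member windows (8.70%), those of Slc25a34, Slc25a39, Slc25a45 and Slc25a47, against 13.3% of the windows of tested genes. The full palindromic estrogen response element (GGTCA, any 3 bases, TGACC) was in none of the 46. It was in 0.0194% of the windows of tested genes and in 0.0700% of all windows. The estrogen-related receptor site TCAAGGTCA and the direct repeat bound by PPARs (AGGTCA, any base, AGGTCA), which both contain the half-site, were also in none. They occur in 0.297% and 0.0517% of the windows of tested genes and in 0.423% and 0.0396% of all windows. For sites this rare, absence from 46 windows says little. The site of the mitochondrial regulator NRF1 (GCGC, any 2 bases, GCGC) was in 3 member windows (6.52%), those of Slc25a3, Slc25a10 and Slc25a31, against 11.0% of the windows of tested genes. These matches describe letters within 300 bases and nothing outside them.

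Library totals ran from 30826790 to 33709643 counts, and the members took between 0.276% and 0.337% of them. A count of 0 was read against a floor of 3 counts, which is 0.0826 to 0.114 CPM, the count relative to the library total after TMM scaling. The colon label was checked against 10 epithelial markers. None was at 0 in any library. Of the 10, 6 had positive and 4 negative fold changes (median log2 fold change 0.03), and Cdx2 and Car1 fell. Their summed level was 10295 and 9411 CPM in Esr2-KO and 12403 and 15423 CPM in WT, and that of the 9 without Car1 was 9183 and 8329 CPM in Esr2-KO and 9401 and 8931 CPM in WT. Of 8 markers of small intestinal enterocytes, 4 were at 0 in some library (Fabp1, Apoa1, Apoa4 and Sis), and the summed level was 205 and 59.0 CPM in Esr2-KO and 758 and 898 CPM in WT. None of the 4 tested passed, Fabp1, Fabp2 and Alpi lying below WT and Rbp2 above it without overlap. Esr2 itself had 6 and 16 counts in Esr2-KO and 21 and 13 counts in WT. That does not check the genotype labels at this depth. Esr2-KO 2 stood apart. Genes of pancreatic acinar cells took 18.8% of its counts, against 0.0904% in Esr2-KO 1 and 0.0170% and 0.0190% in WT 1 and WT 2.

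By level per kilobase of exon, a single member outweighed all others. Slc25a5, the adenine nucleotide translocase best known from dividing cells (chrX:36795651-36798807 in GRCm38), stood at 638 and 578 CPM per kilobase in Esr2-KO and at 533 and 531 in WT. It made up 55.6% and 52.4% of the summed level of the 47 members in Esr2-KO and 52.0% and 51.2% in WT. Slc25a3, which brings in the phosphate for ATP synthesis (chr10:91116574-91124059), followed with 126 and 132 CPM per kilobase in Esr2-KO and 101 and 111 in WT. The size of this lead, and the shares, depend on the divisor, an exon union of 1646 bases for Slc25a5 and 5550 bases for Slc25a3. Before division by length, Slc25a5 averaged 875 CPM and Slc25a3 588 CPM in WT. Carriers of ATP synthesis substrates thus held the first and second rank, and the 10 most abundant members made up 88.5% to 89.7% of the sum in each library.

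The next ranks belonged to members of several roles. Slc25a39, a carrier of glutathione into the matrix, averaged 64.8 ± 6.9 CPM per kilobase in Esr2-KO and 69.7 ± 5.8 in WT (SD, n = 2 each here and below). Slc25a4, the translocase best known from heart and skeletal muscle, averaged 39.7 ± 2.6 in Esr2-KO and 50.4 ± 6.2 in WT. Slc25a10, which exchanges malate or succinate for phosphate, averaged 37.2 ± 0.50 in Esr2-KO and 46.1 ± 3.4 in WT. Slc25a20, the carnitine-acylcarnitine carrier of fatty acid oxidation, averaged 53.7 ± 2.8 in Esr2-KO and 38.3 ± 10.6 in WT, so that in WT it could not be ordered against Slc25a10 or Slc25a4 beyond the spread. The peroxisomal Slc25a17, the NAD carrier Slc25a51, Slc25a34 and Slc25a44, a carrier of branched-chain amino acids, completed the 10, with WT means from 20.8 down to 16.1 CPM per kilobase. In all, 11 members exceeded 10 CPM per kilobase in WT, while 8 of the 40 tested members lay under 1.

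**Figure D1:**
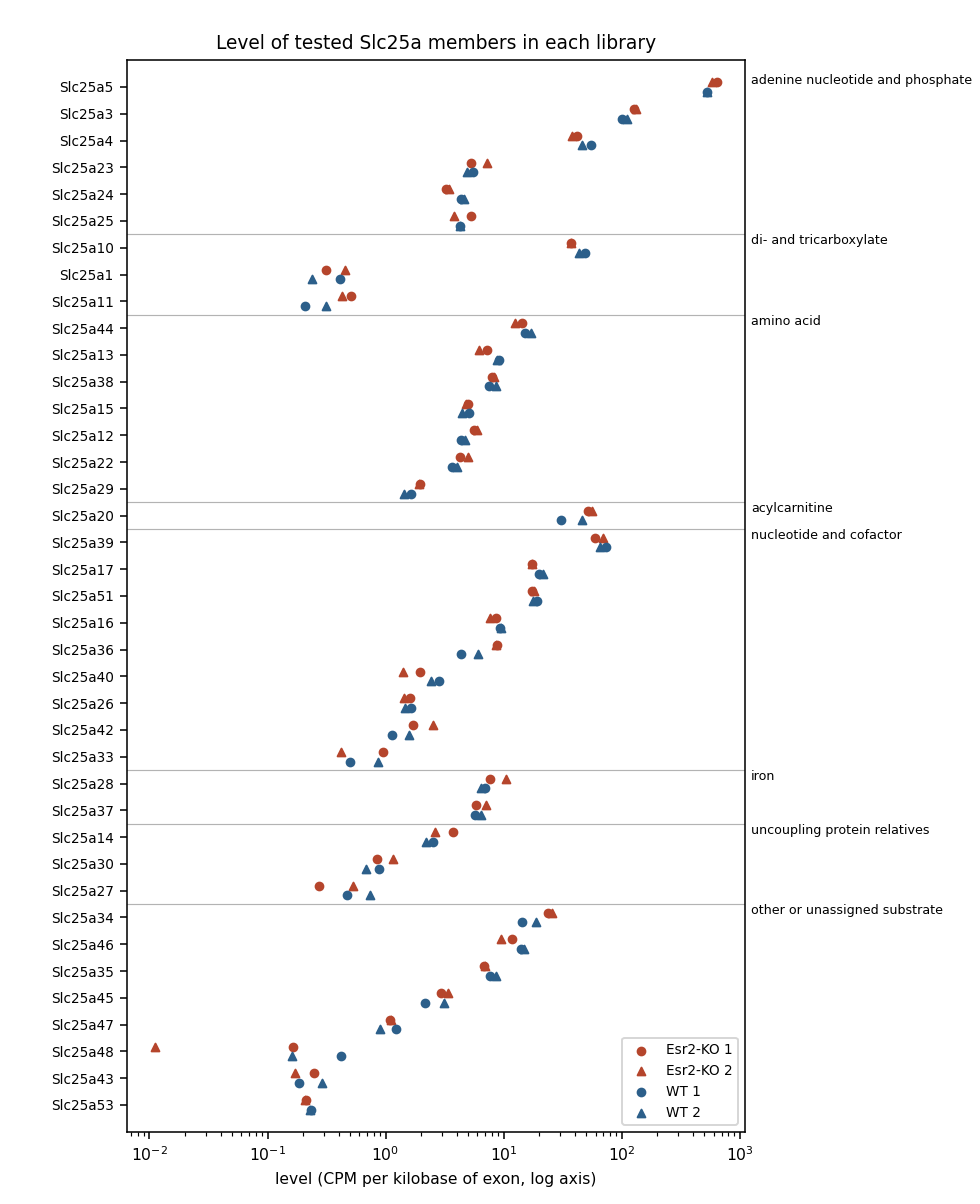
Level of 39 tested Slc25a members in each library, in CPM per kilobase of exon on a log axis, grouped by role and ordered by WT mean. Red symbols are Esr2-KO 1 (circle) and Esr2-KO 2 (triangle), blue symbols WT 1 and WT 2. Slc25a5 lies at 531 to 638 in every library, while Slc25a48 in Esr2-KO 2 rests on 1 count.

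At the other end, 7 members were at or near 0 and were not tested, with at most 6 counts in any library. Slc25a31, the translocase of male germ cells, had 0 and 1 counts in Esr2-KO and 0 and 0 in WT. Slc25a2 and Slc25a18, carriers of ornithine and of glutamate, had 1 count in a single Esr2-KO library each, Slc25a41 had 1 count in WT 1, and Slc25a54 had 2 and 1 counts in WT and none in Esr2-KO. Slc25a21, which moves oxoadipate and related acids, had 1 and 2 counts in Esr2-KO and 1 and 2 in WT. These values lie at or under the floor of 3 counts, and no fold is given. Slc25a32, a carrier of folate and FAD, had 6 and 5 counts in Esr2-KO and 6 and 6 in WT.

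Members side by side on a chromosome could differ widely in level. The 47 members lay on 19 chromosomes, and 4 pairs were less than 20000 bases apart. Slc25a43 ends 18448 bases before Slc25a5 on the X chromosome and averaged 0.238 CPM per kilobase in WT, against 532 for Slc25a5. Slc25a54 lies 6461 bases from Slc25a24, and Slc25a41 lies 2056 bases from Slc25a23. In both pairs the first named was at 0 to 2 counts in every library, while Slc25a24 and Slc25a23 had 313 to 1052. Slc25a29, a basic amino acid carrier, and Slc25a47 are head to head on chromosome 12, with gene bounds 162 bases apart in GENCODE M21. A RefSeq promoter window of Slc25a47 lies well inside its bounds, at chr12:108850879-108851178. Whether the pair shares a promoter was not tested. The pair had similar WT levels of 1.54 and 1.07 CPM per kilobase.

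Esr2-KO was then set against WT, the question being which carrier transcripts of the colon differ when the receptor is missing. None of the 40 tested members passed the threshold, a Benjamini-Hochberg adjusted p under 0.05 over 17169 genes by the quasi-likelihood test of edgeR. Across all tested genes 2.69% passed, 1.30% higher and 1.39% lower in Esr2-KO. At an unadjusted p under 0.05, 11 members lay past it, 5 higher and 6 lower, which is 27.5% of those tested beside 20.6% of all tested genes. DESeq2 called 2 members, Slc25a36 and Slc25a34, both higher, where it called 10.2% of all genes it gave an adjusted p (4.88% higher), and limma-voom called 0, where it called 3.53%. The median log2 fold change was 0.04 over the members and -0.0031 over all genes. With library totals it was -0.11 over the members and -0.17 over all genes, and without WT 2 it was 0.12 over the members and 0.02 over all genes. In the reported fit the median size of a change was 0.28 over the members and 0.26 over all genes. The groups did not overlap for 24 of the 40 members, 13 with both Esr2-KO libraries above both WT libraries and 11 below, which is 60.0% beside 54.7% of all tested genes (27.0% above and 27.7% below). In these bulk samples fewer cells of a type and less RNA per cell cannot be told apart.

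The fit gives an interval for each change, which covers only the spread between these libraries. If the libraries of a genotype are technical, it does not bound differences between mice. For 29 of the 40 members the 95% interval of the fold change, not adjusted for the number of genes, lay within a 2-fold change either way. The interval of Slc25a5 ran from -0.25 to 0.63 on the log2 scale, and that of Slc25a51 from -0.31 to 0.21. The other 11 intervals reached a 2-fold change, the widest being that of Slc25a48 (-3.99 to 0.70), which had 19 and 1 counts in Esr2-KO and 51 and 19 in WT.

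**Figure D2:**
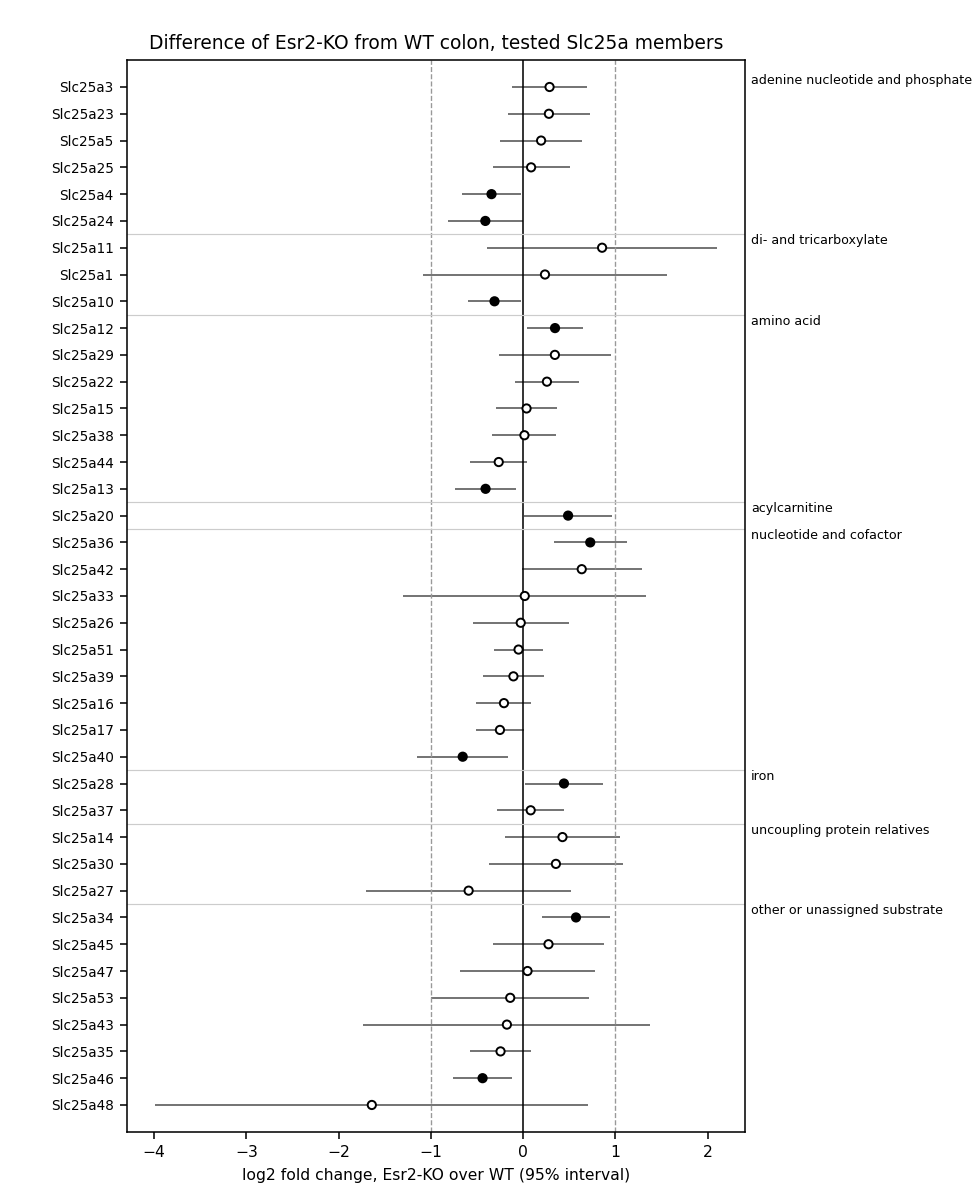
Log2 fold change of Esr2-KO over WT for 39 tested Slc25a members, with 95% intervals from the quasi-likelihood fit, grouped by role. Filled points have an unadjusted p under 0.05, dashed lines mark a 2-fold change, and 28 of the drawn intervals lie between them.

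**Figure D3:**
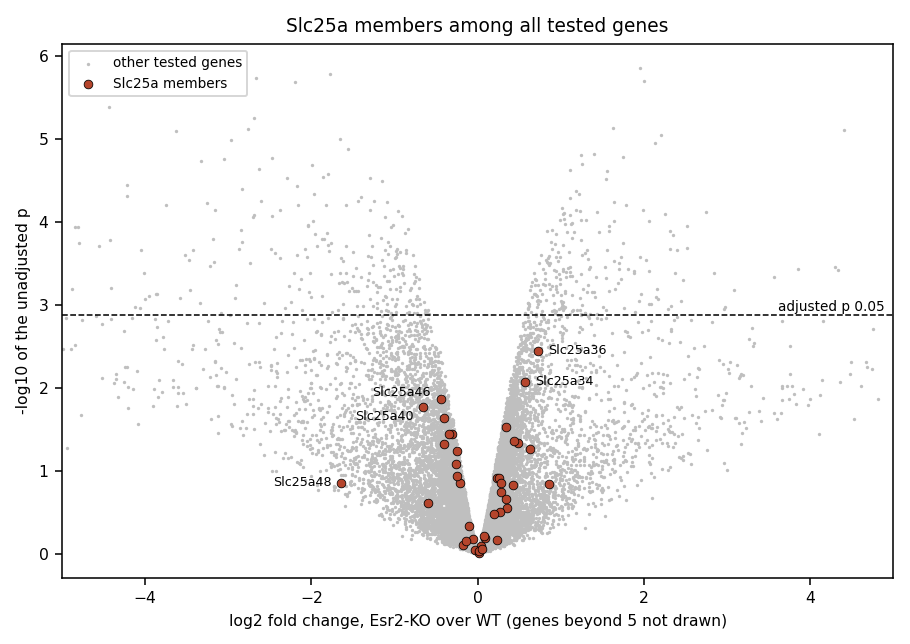
Log2 fold change (Esr2-KO over WT) and -log10 of the unadjusted p for the Slc25a members (red) and the other tested genes (grey). The dashed line is the largest p that passed an adjusted p of 0.05, and the 40 members lie under it, Slc25a36 nearest.

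Among the 6 tested carriers of adenine nucleotides and phosphate none passed. Both translocases had Esr2-KO values outside the WT range, on opposite sides. Slc25a4 stood at 97.7 and 89.1 CPM in Esr2-KO, against 129 and 108 CPM in WT, with a log2 fold change of -0.34 ± 0.13 (SE) and an edgeR adjusted p of 0.208. Slc25a5 stood at 1050 and 952 CPM in Esr2-KO, against 877 and 874 CPM in WT, with 0.19 ± 0.18 and an adjusted p of 0.596. Within each library, Slc25a5 exceeded Slc25a4 per kilobase 15.4-fold and 15.3-fold in Esr2-KO, against 9.72-fold and 11.5-fold in WT. This ratio needs no scaling between libraries, but it was examined after the values were seen. With Slc25a5 above and Slc25a4 below WT, its separation follows from the values above and is no further support. These genes are close relatives, so the reads of one could in part be counted for the other.

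Slc25a3 stood at 701 and 734 CPM in Esr2-KO, against 559 and 618 CPM in WT, without overlap (0.29 ± 0.17, edgeR adjusted p = 0.395). Slc25a24, a calcium-regulated carrier of ATP-Mg and phosphate, stood at 11.1 and 11.9 CPM in Esr2-KO, against 14.8 and 15.7 CPM in WT (-0.41 ± 0.17, edgeR adjusted p = 0.239). Its relatives Slc25a23 and Slc25a25 overlapped between the groups, Slc25a23 with 27.8 and 38.5 CPM in Esr2-KO and 29.0 and 25.7 CPM in WT. Markers of 2 tissues or states known for particular translocases are given beside these values. The summed level of 8 markers of dividing cells was 334 and 236 CPM in Esr2-KO and 722 and 490 CPM in WT, none of them at 0, all 8 with negative fold changes and 1 of them, Kif11, past the threshold. That of 8 striated muscle markers, 3 of them at 0 in some library, was 18.2 and 21.8 CPM in Esr2-KO and 24.9 and 28.9 CPM in WT. Of the 5 of them tested none passed, Ckm and Acta1 had negative fold changes, Myh2, Tnnt3 and Myl1 had positive ones, and the median was 0.32. The summed level of 6 smooth muscle markers was 4939 and 6233 CPM in Esr2-KO and 6261 and 4832 CPM in WT. All 6 overlapped between the groups, none passed, and their median was -0.05. The part of any of these lists in the values of Slc25a5 and Slc25a4 was not tested.

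Of the di- and tricarboxylate carriers 3 were tested and none passed. Slc25a10 stood at 130 and 127 CPM in Esr2-KO, against 168 and 151 CPM in WT, without overlap (-0.31 ± 0.12, edgeR adjusted p = 0.208). Slc25a1, which exports the citrate used for fatty acid synthesis, had 23 and 26 counts in Esr2-KO and 32 and 18 in WT. Slc25a11, the oxoglutarate carrier of the malate-aspartate shuttle, had 37 and 24 counts in Esr2-KO and 16 and 23 in WT, and its fitted change of 0.85 ± 0.52 was the largest positive one among the members (edgeR adjusted p = 0.403). Both were thus counted near the limit of what could be tested, although their substrates are handled by abundant enzymes. Citrate synthase (Cs) stood at 641 and 685 CPM in Esr2-KO and 490 and 504 CPM in WT, and the cytosolic citrate lyase Acly at 342 and 413 CPM in Esr2-KO and 237 and 224 CPM in WT. Acly and Cs did not pass (edgeR adjusted p = 0.0645 and 0.214).

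Among 7 tested amino acid carriers, the 2 that carry aspartate and glutamate lay on opposite sides. Slc25a12 (aralar) stood at 40.8 and 43.6 CPM in Esr2-KO, against 31.8 and 34.6 CPM in WT (0.34 ± 0.13, edgeR adjusted p = 0.190). Slc25a13 (citrin) stood at 27.5 and 23.5 CPM in Esr2-KO, against 34.4 and 33.3 CPM in WT (-0.41 ± 0.14, edgeR adjusted p = 0.171). Neither passed, and neither overlapped between the groups. Without Esr2-KO 1 the changes were 0.40 for Slc25a12 and -0.52 for Slc25a13. Without Esr2-KO 2, the library with pancreatic RNA, they were 0.30 and -0.30, and the part of that RNA was not tested. The ratio of Slc25a12 to Slc25a13 per kilobase, also examined after the values were seen, was 0.769 and 0.959 in Esr2-KO, against 0.478 and 0.539 in WT. Its separation likewise follows from the opposite sides of the 2 genes. Slc25a44 stood at 51.2 and 44.6 CPM in Esr2-KO, against 54.0 and 61.2 CPM in WT (-0.27 ± 0.13, edgeR adjusted p = 0.305). The glutamate carrier Slc25a22 and the basic amino acid carrier Slc25a29 were above WT without overlap, Slc25a22 with 25.7 and 29.7 CPM in Esr2-KO and 22.0 and 24.3 CPM in WT, and Slc25a29 with 5.15 and 5.05 CPM in Esr2-KO and 4.30 and 3.74 CPM in WT. Slc25a38, a glycine carrier needed for heme synthesis, overlapped with 21.9 and 22.8 CPM in Esr2-KO and 20.5 and 23.8 CPM in WT, as did the ornithine carrier Slc25a15.

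The acylcarnitine carrier Slc25a20 stood at 251 and 270 CPM in Esr2-KO, against 149 and 222 CPM in WT. The Esr2-KO libraries lay above both WT libraries, but the distance between the WT libraries was larger than that from WT 2 to Esr2-KO 1. Its log2 fold change was 0.49 ± 0.20 with an edgeR adjusted p of 0.234, and it was 0.23 without WT 1 and 0.82 without WT 2. Ppara, the fatty acid sensor whose targets include genes of fatty acid oxidation, had the smallest p among 8 regulators of mitochondrial biogenesis and stood at 16.8 and 13.9 CPM in Esr2-KO and 27.6 and 41.0 CPM in WT (-1.16 ± 0.22, edgeR adjusted p = 0.0501), which missed the threshold. It passed in 6 of 14 alternatives, with DESeq2 (adjusted p = 8.28e-05), no low-count filter (0.000160), library totals (0.0182), without Esr2-KO 1 (0.00824), without WT 1 (0.0467) and without acinar genes (0.0476), and its adjusted p was highest without WT 2 (0.156). None of the 8 regulators passed, and 4 had positive and 4 negative fold changes. Ppargc1a, a coactivator of mitochondrial biogenesis, stood at 36.1 and 43.0 CPM in Esr2-KO and 22.9 and 26.5 CPM in WT (0.68 ± 0.15, edgeR adjusted p = 0.0718).

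The carriers of nucleotides and cofactors held the member nearest to the threshold. Slc25a36, a pyrimidine nucleotide carrier on chromosome 9 (97074961 to 97111157 in GRCm38), stood at 83.6 and 82.6 CPM in Esr2-KO, against 42.2 and 58.3 CPM in WT. The log2 fold change was 0.73 ± 0.17 with an interval from 0.33 to 1.12 and an edgeR adjusted p of 0.0732. It passed with DESeq2 (adjusted p = 0.00240), without a low-count filter (0.00130), without WT 2 (0.0345) and without Esr2-KO 1 (0.0438). Over 14 alternatives its adjusted p ran from 0.00130 to 0.246, the highest without WT 1. Its relative Slc25a33, which carries the same class of substrate, had 61 and 21 counts in Esr2-KO and 34 and 57 in WT, so that the groups overlapped. Slc25a40, a relative of the glutathione carrier Slc25a39, stood at 16.4 and 11.7 CPM in Esr2-KO, against 23.9 and 20.4 CPM in WT (-0.66 ± 0.21, edgeR adjusted p = 0.146), while Slc25a39 itself stood at 165 and 192 CPM in Esr2-KO and 203 and 181 CPM in WT, with overlap (-0.11 ± 0.14, edgeR adjusted p = 0.707). The change of Slc25a40 was -0.92 without Esr2-KO 1 and -0.43 without Esr2-KO 2, the library with pancreatic RNA. The part of that RNA was not tested.

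The other cofactor carriers differed less or were spread more. The coenzyme A carrier Slc25a42 stood at 10.2 and 15.1 CPM in Esr2-KO, against 6.80 and 9.46 CPM in WT, with the larger distance in Esr2-KO 2. Slc25a17 was at 49.8 and 49.5 CPM in Esr2-KO and 57.1 and 61.3 CPM in WT (-0.25 ± 0.11, edgeR adjusted p = 0.262). Slc25a16 was at 41.6 and 36.6 CPM in Esr2-KO and 44.9 and 45.5 CPM in WT. The groups did not overlap for these 3. Slc25a51 was at 96.5 and 100.1 CPM in Esr2-KO and 106 and 97.9 CPM in WT, with overlap (-0.05 ± 0.11, edgeR adjusted p = 0.835), and Slc25a26, which carries S-adenosylmethionine, at 7.75 and 6.83 CPM in Esr2-KO and 7.85 and 7.01 CPM in WT.

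Both iron carriers of the family were tested. Slc25a28 (mitoferrin 2) stood at 28.8 and 39.3 CPM in Esr2-KO, against 26.0 and 24.1 CPM in WT (0.44 ± 0.18, edgeR adjusted p = 0.229), with most of the distance in Esr2-KO 2. In that library 18.8% of counts came from genes of pancreatic acinar cells, and the part of pancreatic RNA in this value was not tested. Slc25a37 (mitoferrin 1), the iron carrier of red cell precursors, stood at 34.9 and 43.0 CPM in Esr2-KO and 34.6 and 39.0 CPM in WT, with overlap. The 3 relatives of the uncoupling proteins were rare. Slc25a14 had the smallest p of them, with 8.77 and 6.22 CPM in Esr2-KO and 5.95 and 5.23 CPM in WT (0.43 ± 0.26, edgeR adjusted p = 0.406), and Slc25a27 and Slc25a30 overlapped.

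Among 8 tested members with other or no assigned substrate, Slc25a34 came closest. This carrier, on chromosome 4 (141618824 to 141623821), stood at 63.4 and 68.5 CPM in Esr2-KO, against 38.4 and 50.4 CPM in WT (0.57 ± 0.15, edgeR adjusted p = 0.109). It passed with DESeq2 (adjusted p = 0.0219) and without a low-count filter (0.0117), and over the 14 alternatives its adjusted p ran up to 0.423, without WT 1. Its relative Slc25a35, which shares 31.3% of its exon bases with Rangrf on the other strand so that reads could be split between them, stood at 25.0 and 25.6 CPM in Esr2-KO and 28.1 and 31.9 CPM in WT. Slc25a46, an outer membrane protein of mitochondrial dynamics, stood at 63.6 and 51.8 CPM in Esr2-KO, against 76.1 and 80.7 CPM in WT (-0.44 ± 0.13, edgeR adjusted p = 0.134). The change of Slc25a46 was -0.59 without Esr2-KO 1 and -0.29 without Esr2-KO 2, the library with pancreatic RNA, whose part was not tested. Slc25a48 had the largest negative fitted change (-1.64 ± 0.98, edgeR adjusted p = 0.395), on few counts. That change was -4.55 without Esr2-KO 1, -0.80 without Esr2-KO 2, -0.83 without WT 1 and -2.16 without WT 2. Slc25a43, Slc25a45 and Slc25a47 overlapped, and Slc25a53 did not, with 58 and 44 counts in Esr2-KO and 68 and 64 in WT.

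**Figure D4:**
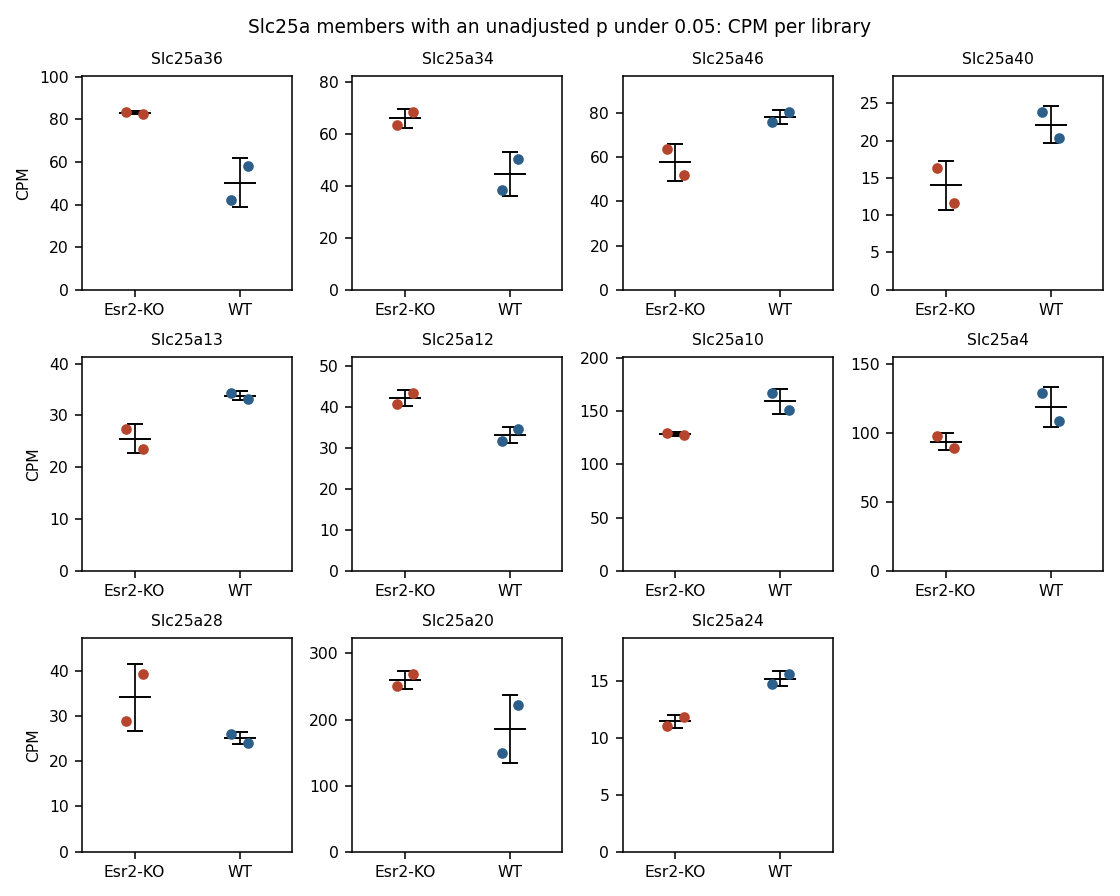
CPM per library of the 11 Slc25a members with an unadjusted p under 0.05, Esr2-KO (red) left of WT (blue), ordered by p. Horizontal lines are means and bars SD (n = 2 each), and every axis starts at 0. The groups do not overlap in any panel, but the panels were chosen by p from these same libraries. Over all tested genes the groups did not overlap for 54.7%.

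Genes that work with the carriers were read from lists that held 72 symbols, 70 of them tested. Of these, 1 rose and 1 fell, a share near the 2.69% of all tested genes that passed, and the median log2 fold change was 0.03. Sfxn5, a sideroflexin of the inner membrane and the 1 of 14 other inner membrane transporters to pass, rose to 19.7 and 20.4 CPM in Esr2-KO, against 8.65 and 9.95 CPM in WT (1.11 ± 0.17, edgeR adjusted p = 0.0313). Otc, the urea cycle enzyme that uses the ornithine brought in by Slc25a15, fell to 10.1 and 4.74 CPM in Esr2-KO, against 35.2 and 29.6 CPM in WT (-2.12 ± 0.34, edgeR adjusted p = 0.0325). Otc is known from enterocytes of the small intestine, whose markers summed to 205 and 59.0 CPM in Esr2-KO and 758 and 898 CPM in WT. Fabp2 alone held 166 and 19.9 CPM of this in Esr2-KO and 717 and 826 CPM in WT. Of the 4 markers tested, 3 had negative fold changes, Rbp2 had a positive one, and none passed. The part of these markers in the value of Otc was not tested. Slc25a15 itself stood at 28.0 and 27.2 CPM in Esr2-KO and 28.9 and 25.0 CPM in WT. Neither call held without WT 1 (edgeR adjusted p = 0.149 for Sfxn5 and 0.104 for Otc) or without WT 2 (0.0724 and 0.0581), and that of Sfxn5 was also lost with library totals (0.0504). Over the 14 alternatives the adjusted p of Sfxn5 ran from 2.03e-05 to 0.149 and that of Otc from 2.90e-09 to 0.104, the lowest of each with DESeq2.

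None of the 4 tested carriers whose symbols fall outside the rule passed. Ucp2, an uncoupling protein, was the most abundant of them with 468 and 451 CPM in Esr2-KO and 425 and 419 CPM in WT. Mtch2, a carrier relative in the outer membrane, came nearest to the threshold with 145 and 127 CPM in Esr2-KO, against 243 and 201 CPM in WT (-0.71 ± 0.15, edgeR adjusted p = 0.0600). Mtch2 passed in 4 of 14 alternatives, with DESeq2 (adjusted p = 0.000224), no low-count filter (0.00292), limma-voom (0.0487) and without Esr2-KO 1 (0.0278), and its adjusted p was highest without WT 1 (0.230). Ucp1 had 1 count in all. None of the 12 tested genes of the import pathway that inserts carriers into the membrane passed, with a median of 0.01, and the receptor Tomm70a had the smallest p (-0.34 ± 0.12, edgeR adjusted p = 0.176). Of the 3 outer membrane channels that let metabolites reach the carriers, none passed. Vdac1 stood at 397 and 397 CPM in Esr2-KO and 343 and 320 CPM in WT (0.26 ± 0.14, edgeR adjusted p = 0.351).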

How the data were processed

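Colon RNA of 2 Esr2-KO and 2 WT libraries was sequenced after removal of ribosomal RNA, with a directional library kit, per the labels' protocols. The authors deposited raw counts for each gene symbol, without normalization. Reads were aligned with HISAT2 to mm10, per the submitters' processing notes. How reads were counted (program, annotation, strand, filters) is not stated in the sources used here. Reads of genes that overlap or are nearly identical may therefore be split between them.

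Genes were kept with filterByExpr (minimum count 10, minimum total 15), scaled by TMM and tested two-sided with glmQLFit and glmQLFTest of edgeR 4.0.16, after estimateDisp, under R 4.3.3, over all 17169 genes kept, with Benjamini-Hochberg adjusted p under 0.05 as the threshold. CPM values use TMM-scaled totals. Standard errors come from the F statistic, and 95% intervals from the quasi-likelihood t distribution. Floors cover counting error only. Levels per kilobase divide by the union of exons in GENCODE M21 (GRCm38, the same build), which need not be the authors' annotation and matched all 47 symbols. Neighbour distances use the same annotation. Promoters are RefSeq's. Chi-square per degree of freedom between libraries of a genotype was 478 for Esr2-KO (18132 genes) and 39.7 for WT (18545 genes), far beyond sampling noise, so none was counted as a copy.

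The members and lists were chosen with earlier results of these data known. Named with full statistics are members past the threshold, the 10 highest per kilobase in WT and the smallest p of each role. Slc25a12, Slc25a24, Slc25a40, Slc25a46, Slc25a11 and Slc25a48 were added after their values were seen, as were Cs, Acly and Ppargc1a. In each other list, calls or else the smallest p are named, with Ucp1, Ucp2 and the Esr2, Cdx2, Car1, Kif11, enterocyte and muscle marker checks added. Alternatives used other scaling, filters, DESeq2 1.42.0, limma-voom (limma 3.58.1), a block for the replicate number, leaving out each library, and acinar or mitochondrially encoded genes left out. Values of 1 tested member are not reported here, though the counts over members include it. The procedure was tested on simulated data, where it called 40% of genes changed 2-fold and 85.4% of those changed 4-fold. Simulated counts were drawn from WT means with a spread set by level alone, and without a library holding pancreatic RNA. These rates need not hold for the real comparison.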

Additional observations from a re-analysis of the deposited data

How the results depend on the processing

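Under 14 alternatives the count of members past the threshold remained 0 in 10 and was above 0 in 4. It was 3 with no low-count filter (Slc25a34 and Slc25a36 higher, Slc25a40 lower), 2 with DESeq2 (Slc25a34 and Slc25a36), and from 0 to 4 when a library was left out, with 4 without Esr2-KO 1 (Slc25a28 and Slc25a36 higher, Slc25a40 and Slc25a46 lower), 1 without WT 2 (Slc25a36) and 0 without WT 1 or without Esr2-KO 2, which held the pancreatic RNA. With 1 library left in a group, that library is assumed to vary like the others. Without Esr2-KO 1 the library left was Esr2-KO 2, the one with pancreatic RNA. The counts over all genes moved with the same settings, to 1916 with no low-count filter, 1693 with DESeq2, 695 with library totals and from 165 (without WT 1) to 1804 (without Esr2-KO 1) with a library left out, beside 462. With library totals 208 were higher and 487 lower, against 223 and 239, and the median of all genes shifted to -0.17. The count of other mitochondrial genes, 2 in the reported fit, was 12 with no low-count filter, 13 with DESeq2, 5 with limma-voom, 4 without acinar genes and 1 to 10 with a library left out. The cause of these moves was not tested. Over the 20 members with reported fits the direction turned for Slc25a39 without Esr2-KO 1 (0.0025, with -0.21 as the lowest value over libraries left out) and for Slc25a51 without WT 1 (0.0067, lowest -0.088). The labels do not say that replicate numbers pair libraries. Deviations of same-numbered libraries correlated at -0.08 over genes, and with the replicate number as a block 0 members, 2 other mitochondrial genes and 490 of all genes passed. Low counts limit what could be seen for some members, such as Slc25a1, Slc25a11, Slc25a43 and Slc25a48.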

Other observations

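Some members and a related enzyme had lower counts than genes of the same routes, as values of the deposited table. Slc25a1 averaged 0.383 CPM per kilobase in Esr2-KO and 0.323 in WT, Slc25a11 averaged 0.470 in Esr2-KO and 0.260 in WT, and Slc25a32 averaged 0.0300 in Esr2-KO and 0.0278 in WT. Mat2a, which makes the S-adenosylmethionine carried by Slc25a26, stood at 4.68 and 4.17 CPM in Esr2-KO and 3.85 and 4.57 CPM in WT. In GENCODE M21 no exon base of Slc25a1 or Slc25a32 is shared with another gene, and 8.92% of those of Slc25a11 are shared with Rnf167 on the other strand. The authors' annotation is not given, and its part in these low counts was not tested.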
